A study of Mus musculus with 17 samples.

Results

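The comparison described here set liver tumors of mice lacking NgBR in hepatocytes against livers of wild-type mice, all kept on a Western diet (WD) rich in fat and cholesterol. NgBR (Nogo-B receptor) is the product of the gene Nus1. The comparison takes up 6 of the 17 RNA sequencing libraries of the series, namely 3 WT livers and 3 tumors. The mice were male, on the C57BL6 background and matched for sex and age. In the knockout, called N-LKO, the first exon of Nus1, flanked by loxP sites, was removed by Cre recombinase. Cre was under the albumin promoter, which is active in hepatocytes, so that the other cells of the liver keep the whole gene. The WT livers came from mice without the deletion after 16 weeks of WD, and the tumors were taken from N-LKO mice after the same diet. A further 3 libraries of N-LKO liver under WD were fitted together with them and are given beside the values as a side group. No tumor of a WT mouse is among the samples, so the loss of Nus1 and the tumor state cannot be told apart in the comparison of tumors with WT livers. Whether tumors and N-LKO livers came from the same mice is not given in the sources used here. All 24233 genes of the count table entered the description, of which 17829 passed the filter on low counts and were tested. The account below is mainly of the genes that were lower in the tumors.

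Hepatocytes oxidize drugs and steroids with cytochrome P450 enzymes, cleave esters with carboxylesterases, burn fatty acids under control of the nuclear receptor PPARα, break down amino acids and secrete most plasma proteins. These tasks are divided along the liver lobule: cells around the central vein, kept in that state by Wnt signals from the vein, express glutamine synthetase and several P450 enzymes, while cells around the portal vein make glucose and urea. Resident macrophages of the liver, the Kupffer cells, line the sinusoids and carry scavenger receptors. NgBR forms, with DHDDS, the enzyme complex that makes the polyprenol backbone of dolichol, the lipid on which N-glycans are built. In liver tumors of mouse and human the programs of the mature hepatocyte are often reduced and genes of the fetal liver come back.

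The 9 WD libraries held 15494731 to 20200618 estimated counts and 21918 to 23454 detected genes. Levels are given as CPM, counts scaled to a common library total, scaled between libraries by TMM factors, which ranged from 0.8056 in WT liver 2 to 1.149 in tumor 2. On the first principal component of the 500 most variable genes, which carried 65.10% of their variance, the WT livers lay at −23.41, −41.01 and −23.24, the N-LKO livers at −8.07, −13.34 and −6.91 and the tumors at 17.42, 57.08 and 41.49. WT liver 2 therefore stood apart from the other WT livers, and tumor 1 lay closest to the livers. The mean rank correlation of a library with the others of its group was 0.957 to 0.963 in the tumors and 0.978 to 0.983 in the WT livers. Counts were therefore repeated without WT liver 2 and without tumor 1.

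With the 9 libraries in 1 edgeR fit, 6.80% of the genes tested were lower in tumors and 8.08% were higher at a Benjamini-Hochberg adjusted p under 0.05. These shares are the background against which the counts of each gene group below are read. All 3 tumors lay below all 3 WT livers for 2919 genes, 16.4% of those tested, and above them for 3161 genes, 17.7%. Of the lower genes, 210 were still called whichever single WT liver or tumor was removed. Without WT liver 2, 1.26% of the genes tested were lower and 1.81% higher. Without tumor 1, 10.1% were lower, and 1967 of the 18285 genes tested were higher. The lower share of all calls was 45.7% with TMM, 49.1% with RLE factors, 36.0% with upper-quartile scaling and 16.2% with library size alone, the last of which shifted the median log2 fold change of all genes from 0.041 to 0.294. The labels call the samples of a group biological replicates without saying that they came from separate animals, so p-values measure the spread between these samples. Against the N-LKO livers, 0.0617% of the genes were lower in the tumors and 0.437% were higher.

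The deleted gene was read first. Nus1 was at 98.9, 96.2 and 88.2 CPM in the WT livers, at 51.1, 47.3 and 41.7 CPM in the N-LKO livers and at 44.0, 34.5 and 28.99 CPM in the tumors (log2 fold change −1.40, SE 0.16, adjusted p 0.00433). All tumors and all N-LKO livers lay below all WT livers, and the difference between tumors and N-LKO livers did not pass (log2 fold change −0.38, adjusted p 0.245). Only the first exon is deleted and counts are per gene, so reads of the remaining exons may be part of these values, which was not tested. The values of Nus1 therefore do not give the level of intact transcript. In these whole pieces of tissue, fewer cells of a type and less RNA per cell cannot be told apart.

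By a rule on size, level and separation of the groups, 21 named genes stand for the largest falls. They are Hhip, Cfd, Cd163, Marco, Cyp2c37, Cyp4a14, Elovl3, Timd4, Cyp2c54, Cyp2c50, Tmc3, Cyp46a1, Bmp10, Tbx3, Clstn3, Cyp2d40, Angptl6, Mcm10, Ces1e, Ces1f and Gas1. In 11 of the 21 all N-LKO livers were already below all WT livers, and in 10 the livers overlapped. In 19 of the 21 tumor 1 was the highest of the 3 tumors, and in 19 all tumors lay below all N-LKO livers. Only Clstn3 passed the test against the N-LKO livers. 14 of the 21 passed in all 6 fits that left out a library, and 7 did not pass without WT liver 2, namely Marco, Cyp4a14, Elovl3, Timd4, Cyp2c50, Bmp10 and Tbx3. Each is described below with the function it belongs to.

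**Figure D1:**
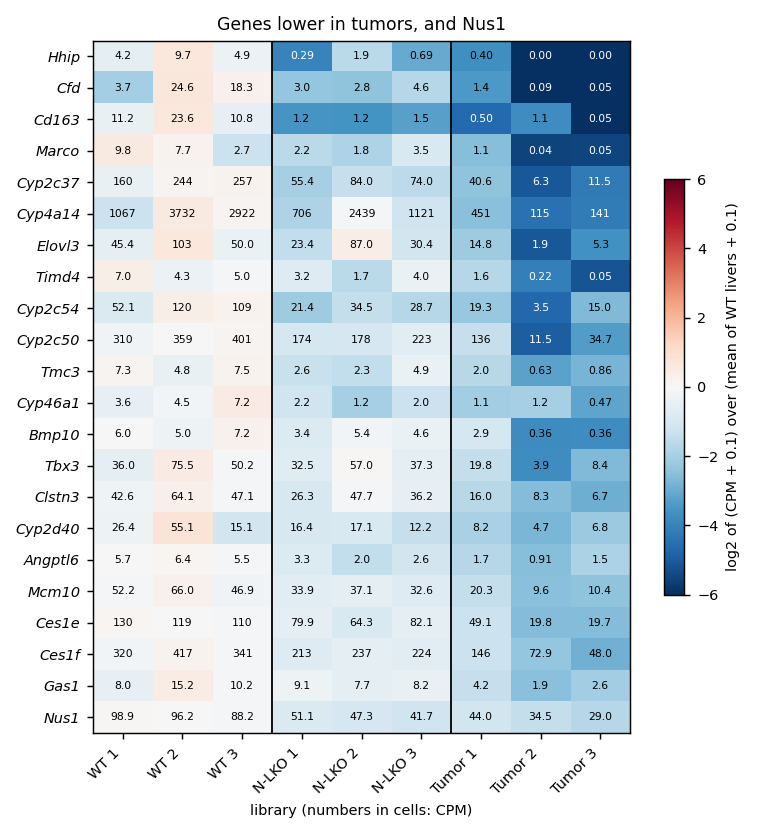
Heat map of the 21 named genes and Nus1 (lines) in every WT liver, N-LKO liver and tumor (columns), with the CPM written in each cell and the color giving the log2 ratio of CPM to the mean of the WT livers, each with 0.1 added. All 3 tumors lie below all 3 WT livers for every gene, and the N-LKO livers lie below all WT livers for 11 of the 21.

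Beside these genes, 50 lists of genes by function or cell type held 968 different genes, of which 935 were tested, 168 were lower and 81 higher. Lists with the highest share of lower members were the major urinary proteins (15 of 18), Kupffer cell markers (5 of 12), organic ion transporters (6 of 15), the growth hormone pathway (4 of 10) and fatty acid oxidation (15 of 38). No member was lower among 29 cell cycle genes, 14 liver cancer markers, 24 acute phase genes, 24 chaperones of the endoplasmic reticulum, 20 interferon-stimulated genes and 22 genes of general glycolysis. Without tumor 1, where 10.1% of all genes tested were lower, 8 of the acute phase genes, 2 of the chaperones and 1 of the liver cancer markers were lower and the other 3 lists still held none. The cell cycle list does not include the replication gene Mcm10, which is among the named falls. No gene group reached a call for more than 1 member against the N-LKO livers in the lower direction.

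**Figure D2:**
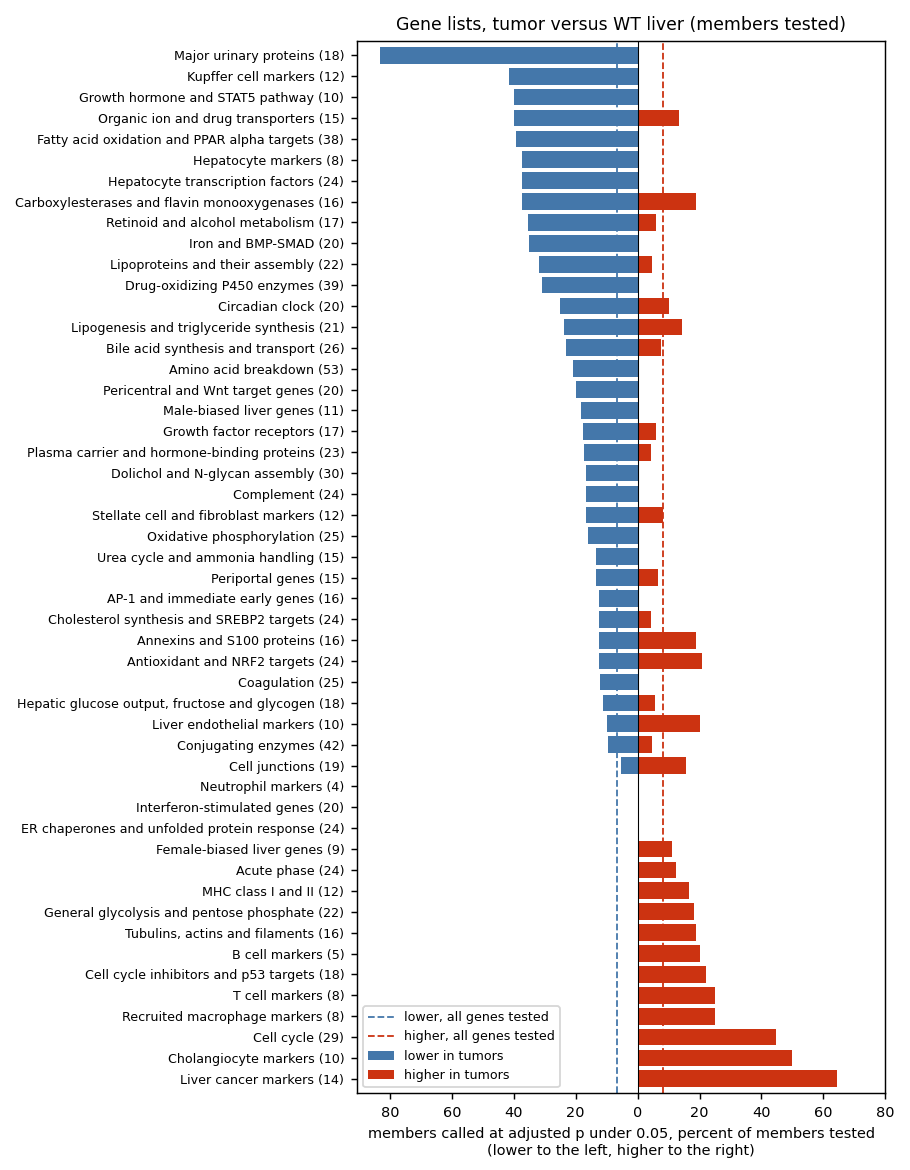
Bars give the share of tested members lower (to the left) and higher (to the right) in tumors than in WT livers for each of the 50 lists, in percent, with the shares among all genes tested as dashed lines. The major urinary proteins reach 83.3% lower, while the cell cycle list, which does not include Mcm10, holds no lower member.

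The drug-oxidizing P450 enzymes were the largest group among the named falls. Of 39 tested, 12 were lower (30.8%, background 6.80%), none was higher, and 7 remained lower without WT liver 2. The sequences upstream of 2 of them are shown because both genes lie in the Cyp2c cluster and were among the largest falls. The 250 bases before the start of Cyp2c37 (GRCm38.p6, chr19:39992174-39992423, plus strand) and of Cyp2c50 (chr19:40089429-40089678, plus strand), from RefSeq, are printed with capitals where the aligned pair differ or 1 lacks a partner inside the alignment. Bases without a partner at the ends of the alignment stay in lower case.
Cyp2c37: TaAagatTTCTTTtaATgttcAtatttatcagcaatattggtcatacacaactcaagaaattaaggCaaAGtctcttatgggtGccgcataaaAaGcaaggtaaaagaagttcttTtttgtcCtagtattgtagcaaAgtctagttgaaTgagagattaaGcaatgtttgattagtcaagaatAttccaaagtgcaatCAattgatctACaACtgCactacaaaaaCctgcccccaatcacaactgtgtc
Cyp2c50: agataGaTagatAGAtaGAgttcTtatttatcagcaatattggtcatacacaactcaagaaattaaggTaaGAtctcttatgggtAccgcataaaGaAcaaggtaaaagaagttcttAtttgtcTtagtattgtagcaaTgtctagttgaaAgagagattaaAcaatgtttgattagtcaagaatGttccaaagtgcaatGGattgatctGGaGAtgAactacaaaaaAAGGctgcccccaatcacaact
Of 242 aligned bases 214 were identical (88.4%), against 73.7% between Cyp2c37 and Cyp2c29 and 74.3% between Cyp2c50 and Cyp2c29. This identity is of the upstream bases only, and the transcripts were not compared. The counts of Cyp2c37, Cyp2c50 and Cyp2c54 were fractional in all 9 libraries, so the share of each is uncertain.

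Cyp2c37 was at 159.7, 244 and 257 CPM in the WT livers, 55.4, 84.0 and 74.0 CPM in the N-LKO livers and 40.6, 6.29 and 11.5 CPM in the tumors (log2 fold change −3.50, SE 0.58, adjusted p 0.00958). Cyp2c50 was at 310.4, 359 and 401 CPM in the WT livers, 174, 178 and 223 CPM in the N-LKO livers and 136, 11.5 and 34.7 CPM in the tumors (log2 fold change −2.56, SE 0.67, adjusted p 0.0330). Both hydroxylate arachidonic acid and drugs, both were lowest in tumor 2, and in both the N-LKO livers lay between WT livers and tumors without overlap. Cyp2c54 was at 52.1, 120.5 and 109 CPM in the WT livers, 21.4, 34.5 and 28.7 CPM in the N-LKO livers and 19.3, 3.50 and 15.03 CPM in the tumors (log2 fold change −2.90, SE 0.53, adjusted p 0.0121). The related Cyp2c29 was at 263, 274 and 284 CPM in the WT livers, 119, 104.1 and 125 CPM in the N-LKO livers and 89.1, 54.9 and 90.7 CPM in the tumors (log2 fold change −1.80, SE 0.19, adjusted p 0.00309). Its N-LKO livers and tumors 1 and 3 stood close together, and its fall passed in all 6 fits. Cyp2c40 (−1.60) and Cyp2c38 (−1.10) were lower too, so that 6 of the 12 lower P450 genes were of the Cyp2c family. Cyp2d40, of the debrisoquine hydroxylase family, was at 26.4, 55.1 and 15.1 CPM in the WT livers, 16.4, 17.1 and 12.2 CPM in the N-LKO livers and 8.20, 4.73 and 6.85 CPM in the tumors (log2 fold change −2.29, SE 0.42, adjusted p 0.0119). WT liver 3 and the highest N-LKO livers overlapped for this gene, while the tumors lay below all livers. Cyp1a1, which the aryl hydrocarbon receptor switches on, was at 1.65, 1.90 and 1.67 CPM in the WT livers and 0.453, 0.178 and 0.313 CPM in the tumors, near the limit of detection (log2 fold change −2.46, SE 0.42, adjusted p 0.00969). Smaller falls were called in Cyp2d22, Cyp2d26, Cyp2j5 and Cyp2u1, between −0.54 and −1.02 on the log2 scale. The abundant Cyp3a11, Cyp3a25 and Cyp2f2 and the electron donor Por did not pass. Cyp2c50, Cyp2c38, Cyp2d22, Cyp2d26, Cyp2j5 and Cyp2u1 lost their calls without WT liver 1 (adjusted p 0.0644 to 0.0870), Cyp2c50, Cyp2d22, Cyp2d26, Cyp2j5 and Cyp2u1 without WT liver 2 (0.0674 to 0.122), and Cyp2c50, Cyp2c38, Cyp2d22 and Cyp2j5 without WT liver 3 (0.0633 to 0.0778). Cyp2d26, Cyp2j5 and Cyp2u1 did so without tumor 1 (0.0521 to 0.0616), Cyp2c38, Cyp2j5 and Cyp2u1 without tumor 2 (0.0516 to 0.0767), and Cyp2c50, Cyp2c38, Cyp2d26 and Cyp2u1 without tumor 3 (0.0503 to 0.0811).

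Among 16 carboxylesterases and flavin monooxygenases, 6 were lower (37.5%) and 3 were higher, and 5 stayed lower without WT liver 2. The 6 were Ces1b, Ces1c, Ces1d, Ces1e, Ces1f and Ces3a, all in the carboxylesterase clusters of chromosome 8. These enzymes sit in the endoplasmic reticulum and cleave esters of drugs and lipids. Ces1e was at 130.3, 119 and 110.2 CPM in the WT livers, 79.9, 64.3 and 82.1 CPM in the N-LKO livers and 49.1, 19.8 and 19.7 CPM in the tumors (log2 fold change −2.02, SE 0.32, adjusted p 0.00852). Ces1f was at 320.5, 417 and 341 CPM in the WT livers, 213, 237 and 224 CPM in the N-LKO livers and 146, 72.9 and 48.0 CPM in the tumors (log2 fold change −2.01, SE 0.34, adjusted p 0.00958). For both, the 3 groups formed 3 steps with no overlap, WT livers above N-LKO livers above tumors. The more abundant Ces3a was at 1275, 1513 and 1102 CPM in the WT livers and 673, 607 and 589 CPM in the tumors (log2 fold change −1.06, SE 0.17, adjusted p 0.00903). Ces1d, which hydrolyses stored triglyceride, was at 489, 474 and 680.3 CPM in the WT livers and 282, 169 and 262 CPM in the tumors (log2 fold change −1.21, SE 0.23, adjusted p 0.0137), and Ces1c also fell (−1.15). In contrast, Ces2c rose from 31.4, 13.8 and 21.2 CPM in the WT livers to 44.4, 86.1 and 46.8 CPM in the tumors (log2 fold change 1.42, SE 0.32, adjusted p 0.0207), and the oxygenases Fmo2 (1.22) and Fmo4 (1.15) were higher. Counts of Ces1b and Ces1c were fractional in every library and those of Ces1d, Ces1e and Ces3a in most, so reads shared within the cluster may move between them. Ces1b and Fmo2 lost their calls without WT liver 1 (adjusted p 0.0685 to 0.0916), Ces1b, Ces2c, Fmo2 and Fmo4 without WT liver 2 (0.0619 to 0.109), and Ces2c and Fmo2 without WT liver 3 (0.0549 to 0.0587). Ces1b, Ces2c and Fmo2 did so without tumor 2 (0.0538 to 0.0631), and Fmo2 without tumor 3 (0.0640).

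The promoter of Ces1e is shown because it holds a D-box, the element read by the clock output factors DBP, TEF and HLF, and clock genes are described below. The 250 bases upstream of its start, from RefSeq (GRCm38.p6, chr8:93229620-93229869, minus strand), carry TTATGTAA 81 bases before the start, in capitals.
Ces1e: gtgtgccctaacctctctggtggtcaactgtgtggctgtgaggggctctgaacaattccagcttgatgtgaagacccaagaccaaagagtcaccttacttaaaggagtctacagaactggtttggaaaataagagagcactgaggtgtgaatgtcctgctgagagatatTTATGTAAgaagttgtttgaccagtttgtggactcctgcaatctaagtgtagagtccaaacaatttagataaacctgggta
Searched on both strands, these letters stand in 269 of 32851 promoters of the same length (0.819%), and the match is a description of the sequence. Hlf, coding for 1 of the factors that read such elements, was at 94.7, 107 and 103 CPM in the WT livers, 88.9, 51.7 and 64.9 CPM in the N-LKO livers and 59.6, 29.1 and 63.0 CPM in the tumors (log2 fold change −1.01, SE 0.28, adjusted p 0.0398). Its tumors lay below all WT livers. Hlf lost its call without WT liver 1 (adjusted p 0.0773), WT liver 2 (0.116), WT liver 3 (0.0832) and tumor 2 (0.0541).

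Conjugating enzymes, which attach sugars, sulfate or glutathione to drugs and hormones, were largely not called. Of 42, 4 were lower (Ugt2a3, Ugt3a1, Ugt3a2 and Gstk1, 9.52%) and 2 were higher, the glutathione transferases Gsta2 and Gsta4. The list's median was −0.10 and turned to 0.14 with library size alone. Gsta2 was at 17.7, 5.08 and 10.96 CPM in the WT livers, 10.7, 9.14 and 11.8 CPM in the N-LKO livers and 38.7, 70.3 and 65.1 CPM in the tumors (log2 fold change 2.37, SE 0.38, adjusted p 0.00893), with all tumors above all livers. It also passed against the N-LKO livers (log2 fold change 2.46, adjusted p 0.0308). None of the 4 lower enzymes passed without WT liver 2, whereas 10 of the 42 were lower without tumor 1 (23.8%, background 10.1%), and without WT liver 2 Gsta2 was the 1 conjugating enzyme still higher.

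Of 15 transporters of organic ions and drugs, 6 were lower (40%) and 2 were higher. Slc22a23, an orphan carrier, was at 74.8, 42.8 and 45.9 CPM in the tumors, below all livers (log2 fold change −1.43, SE 0.21, adjusted p 0.00782). Abcc6, an exporter of the basolateral membrane, fell from 106, 123 and 112 CPM to 62.6, 43.8 and 58.4 CPM (log2 fold change −1.05, SE 0.16, adjusted p 0.00784). For both carriers the tumors lay below every liver of either genotype. Exporters of the P-glycoprotein family rose: Abcb1a, a P-glycoprotein that pumps out lipophilic drugs, was at 11.9, 2.62 and 8.97 CPM in the WT livers, 16.4, 11.7 and 19.7 CPM in the N-LKO livers and 47.9, 81.8 and 90.9 CPM in the tumors (log2 fold change 3.23, SE 0.46, adjusted p 0.00709), and its neighbour Abcb1b rose by a log2 fold change of 2.34 at a lower level. Both passed in all 6 fits. Slco2b1, Slc22a30 and Slc47a1 were lower carriers too (−1.02, −0.89 and −0.66). Slc22a30 and Slc47a1 lost their calls without WT liver 1 (adjusted p 0.0693 to 0.114) and WT liver 3 (0.0600 to 0.0743), Slco2b1 and Slc22a30 without WT liver 2 (0.0806 to 0.130), and Slc22a30 without tumor 2 (0.104) and tumor 3 (0.0787).

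The genes of the pericentral zone behaved differently in the 3 tumors. Of 20 pericentral and Wnt target genes, 4 were lower (20%, namely Tbx3, Nkd1, Znrf3 and Sp5), but 19 had a negative fold change, 14 had all tumors below all WT livers, and the median log2 fold change was −1.62. Their summed level was 11340 to 16030 CPM in the WT livers and 5908, 506 and 731 CPM in tumors 1, 2 and 3. Glul, coding for glutamine synthetase, was at 1573, 1447 and 1516 CPM in the WT livers, 1685, 1442 and 1477 CPM in the N-LKO livers and 1032, 242 and 269.6 CPM in the tumors (log2 fold change −1.56, SE 0.47, adjusted p 0.0516). Cyp2e1, the ethanol-oxidizing P450, was at 7517, 10960 and 7455 CPM in the WT livers and 3254, 129.7 and 229 CPM in the tumors (log2 fold change −2.84, SE 0.98, adjusted p 0.0752). Slc1a2, a glutamate carrier, was at 334, 635 and 404 CPM in the WT livers and 204, 3.38 and 4.95 CPM in the tumors (log2 fold change −2.69, SE 1.20, adjusted p 0.150). In each of these genes tumors 2 and 3 were far below the WT livers and tumor 1 was between. Oat, an ornithine aminotransferase, was at 826, 1629 and 923 CPM in the WT livers and 586, 38.4 and 33.0 CPM in the tumors (log2 fold change −2.36, SE 0.93, adjusted p 0.108). Axin2, a feedback inhibitor that Wnt signals switch on, was at 13.8, 17.5 and 10.97 CPM in the WT livers and 7.69, 0.890 and 1.09 CPM in the tumors (log2 fold change −2.13, SE 0.67, adjusted p 0.0588). Without tumor 1, 17 of the 20 were lower (85.0%, background 10.1%), with a median of −2.99. The exceptions were Notum (−0.89, adjusted p 0.229), Rhbg (−0.93, adjusted p 0.300) and Slc1a4 (0.37, adjusted p 0.597).

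**Figure D3:**
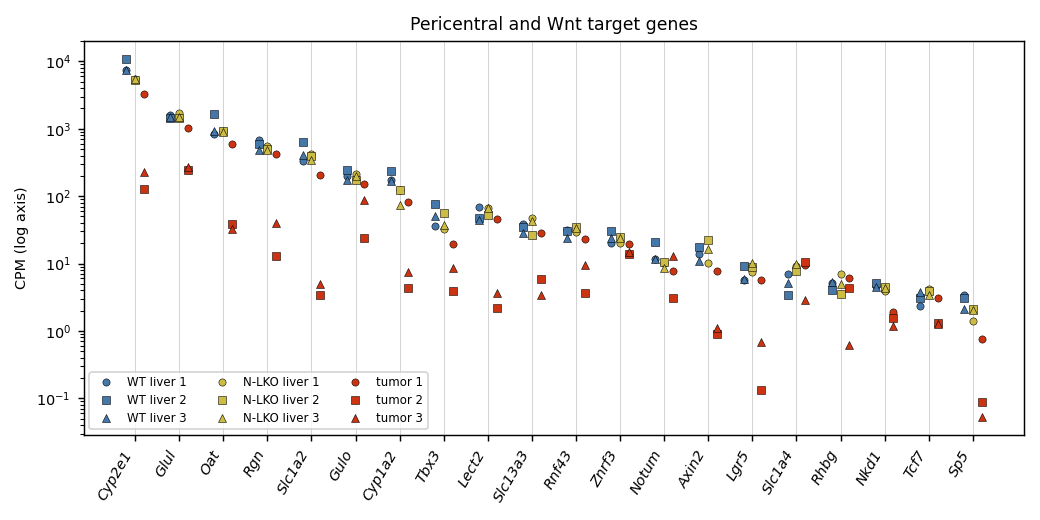
Level in CPM (log scale) of pericentral and Wnt target genes in each WT liver, N-LKO liver and tumor. Tumors 2 and 3 lie far below the livers for most genes, with Cyp2e1 at 3254, 129.7 and 229 CPM in tumors 1, 2 and 3.

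Of the 4 members called, Tbx3, a transcription factor of pericentral hepatocytes, was at 36.0, 75.5 and 50.2 CPM in the WT livers, 32.5, 57.0 and 37.3 CPM in the N-LKO livers and 19.8, 3.91 and 8.45 CPM in the tumors (log2 fold change −2.33, SE 0.51, adjusted p 0.0187). Nkd1, a feedback inhibitor of Wnt signals, was at 4.60, 5.22 and 4.41 CPM in the WT livers, 3.96, 4.56 and 4.36 CPM in the N-LKO livers and 1.91, 1.56 and 1.20 CPM in the tumors (log2 fold change −1.60, SE 0.23, adjusted p 0.00725). The livers of both genotypes overlapped for these genes and the tumors did not, and Nkd1 also passed against the N-LKO livers (log2 fold change −1.46, adjusted p 0.0308). Sp5, a zinc finger repressor that Wnt signals switch on, was at 3.43, 3.12 and 2.15 CPM in the WT livers, 1.42, 2.14 and 2.07 CPM in the N-LKO livers and 0.754, 0.0890 and 0.0521 CPM in the tumors (log2 fold change −3.27, SE 0.66, adjusted p 0.0156). Its promoter is shown as that of a Wnt target among the falls. The 250 bases upstream of its start, from RefSeq (GRCm38.p6, chr2:70474673-70474922, plus strand), hold CTTTGATC, a motif of the Wnt-responsive TCF/LEF factors, in capitals.
Sp5: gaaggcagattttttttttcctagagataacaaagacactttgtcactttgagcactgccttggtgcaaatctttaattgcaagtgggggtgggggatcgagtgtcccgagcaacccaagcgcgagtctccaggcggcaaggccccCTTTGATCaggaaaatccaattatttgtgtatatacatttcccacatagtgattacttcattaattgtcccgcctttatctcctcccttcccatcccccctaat
On either strand these letters stand in 263 of 32851 promoters of the same length (0.801%), and the match is again a description only. Tbx3 overlaps the antisense gene Tbx3os1, and since the strand setting of the counting is not given in the sources used here, their reads cannot be told apart. Znrf3 lost its call without WT liver 1 (adjusted p 0.0508), WT liver 3 (0.0868), tumor 2 (0.106) and tumor 3 (0.102), and Tbx3, Sp5 and Znrf3 without WT liver 2 (0.0539 to 0.167).

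Of 15 periportal genes, 2 were lower (Pck1 and Igf1) and 1 was higher (the epithelial cadherin Cdh1, 1.68), and without tumor 1 they were 2 lower and 3 higher. Cyp2f2, a P450 of periportal cells, was at 831, 713 and 632 CPM in the WT livers and 265, 922 and 898 CPM in the tumors (log2 fold change −0.06, SE 0.41, adjusted p 0.936). Tumor 1 was the lowest here and tumors 2 and 3 were above the WT livers, the reverse of the order in the pericentral genes. Cps1, Ass1 and Arg1, which carry the urea cycle, were not called.

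Major urinary proteins, pheromone carriers that male mice secrete in large amounts under pulses of growth hormone, were the list with the highest share of lower members. Of 18 tested, 15 were lower and none higher, with a median log2 fold change of −4.92. Summed over the list, the WT livers held 9133, 20200 and 8694 CPM, the N-LKO livers 8371, 11850 and 8817 CPM and the tumors 5737, 1933 and 2982 CPM. Without WT liver 2, the highest library, 3 of the 18 were lower, Mup8, Mup12 and Mup16. Mup3, an abundant member, was at 1743, 5045 and 2183 CPM in the WT livers, 846, 1252 and 654 CPM in the N-LKO livers and 599.6, 16.2 and 219 CPM in the tumors (log2 fold change −3.43, SE 0.96, adjusted p 0.0405). WT liver 2 and tumor 2 were the extremes of this gene. Mup genes are nearly identical and their counts were fractional, so the summed level is firmer than that of any member. Mup3 lost its call without WT liver 1 (adjusted p 0.0633), WT liver 2 (0.127), WT liver 3 (0.0636) and tumor 3 (0.0967).

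The growth hormone pathway around them was lower in part. Of 10 genes, 4 were lower (40%), and the receptor Ghr, the kinase Jak2 and the factors Stat5a and Stat5b were not called. Igf1, the growth factor that growth hormone releases from liver, was at 664, 902 and 672 CPM in the WT livers, 554, 550.5 and 570.0 CPM in the N-LKO livers and 418, 246 and 172 CPM in the tumors (log2 fold change −1.42, SE 0.29, adjusted p 0.0155). Igfals, which carries IGF in plasma, was at 43.3, 84.6 and 50.9 CPM in the WT livers, 30.5, 23.4 and 23.7 CPM in the N-LKO livers and 21.8, 18.01 and 31.9 CPM in the tumors (log2 fold change −1.32, SE 0.28, adjusted p 0.0172). The tumors lay below every liver for Igf1, whereas for Igfals they overlapped the N-LKO livers. The receptor Prlr (−1.42) and the feedback inhibitor Socs2 (−1.12) were the other lower members. Igf1, Igfals, Prlr and Socs2 lost their calls without WT liver 2 (adjusted p 0.0591 to 0.0757), Prlr and Socs2 without WT liver 3 (0.0569 to 0.0865) and tumor 2 (0.05004 to 0.0720), and Socs2 without tumor 3 (0.0654).

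Genes expressed more in male than in female liver were called lower in 2 of 11, Elovl3 and Cyp7b1, and in 1 of 12 without tumor 1. Elovl3, an elongase of long-chain fatty acids, was at 45.4, 103 and 50.0 CPM in the WT livers, 23.4, 87.0 and 30.4 CPM in the N-LKO livers and 14.8, 1.87 and 5.32 CPM in the tumors (log2 fold change −3.17, SE 0.73, adjusted p 0.0216). N-LKO liver 2 reached the range of the WT livers, and the tumors lay below every liver. Of 9 female-biased genes, 1 was higher, the steroid hydroxylase Cyp2a4, at 7.13, 0.774 and 6.29 CPM in the WT livers and 45.1, 955 and 10.02 CPM in the tumors (log2 fold change 6.15, SE 1.54, adjusted p 0.0281), nearly all of it in tumor 2. Cyp2a4 lost its call without WT liver 1 (adjusted p 0.0747) and WT liver 3 (0.0734), Elovl3, Cyp7b1 and Cyp2a4 without WT liver 2 (0.0762 to 0.113), and Cyp7b1 without tumor 1 (0.0558). Cyp7b1 and Cyp2a4 did so without tumor 2 (0.0591 to 0.0690), and Elovl3 and Cyp7b1 without tumor 3 (0.0560 to 0.0742).

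Of 24 transcription factors of hepatocytes, 9 were lower (37.5%), none was higher, and the median was −0.63. The largest fall was that of Tbx3, described above. Nr1i3, the drug sensor CAR, was at 147, 198 and 231 CPM in the WT livers, 136, 113 and 133 CPM in the N-LKO livers and 88.1, 33.9 and 40.8 CPM in the tumors (log2 fold change −1.82, SE 0.33, adjusted p 0.0116). Rxra, its partner and that of PPARα and FXR, was at 506, 752 and 494 CPM in the WT livers, 402, 319 and 356 CPM in the N-LKO livers and 262, 226 and 272 CPM in the tumors (log2 fold change −1.20, SE 0.20, adjusted p 0.00895). Cebpb, a basic leucine zipper factor, was at 87.0, 97.5 and 73.5 CPM in the WT livers, 65.6, 46.4 and 43.8 CPM in the N-LKO livers and 44.0, 31.4 and 35.3 CPM in the tumors (log2 fold change −1.22, SE 0.20, adjusted p 0.00863). These 3 passed in all 6 fits and were the 3 still lower without WT liver 2. Falls under 1 on the log2 scale were called, among others, in Hnf4a (−0.75), the bile acid receptor Nr1h4 (−0.56), Ppara (−0.71) and Creb3l3 (−0.57). Foxa1, Foxa2, Foxa3, Cebpa, Prox1 and Onecut1 were not called. Cebpb overlaps Tmem189 on the other strand, which stood at 30.4 CPM on average in the WT livers and 9.07 CPM in the tumors. Ppara and Creb3l3 lost their calls without WT liver 1 (adjusted p 0.0522 to 0.0733), WT liver 3 (0.0626 to 0.1) and tumor 1 (0.0633 to 0.0867), Hnf4a, Nr1h4, Ppara and Creb3l3 without WT liver 2 (0.0681 to 0.156), and Hnf4a, Ppara and Creb3l3 without tumor 2 (0.0566 to 0.0943).

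Fatty acid oxidation held the most lower genes of any metabolic list. Of 38 genes of β-oxidation, ketone formation and PPARα control, 15 were lower (39.5%), none was higher, and 4 were lower without WT liver 2, Acaa1a, Cyp4a32, Eci2 and Acsl1. Cyp4a14, a fatty acid ω-hydroxylase that PPARα induces, was at 1067, 3732 and 2922 CPM in the WT livers, 706, 2439 and 1121 CPM in the N-LKO livers and 451, 115 and 141 CPM in the tumors (log2 fold change −3.45, SE 0.69, adjusted p 0.0149). N-LKO livers overlapped WT livers for this gene, and tumors 2 and 3 were the lowest. Acsl1, which activates fatty acids to their CoA esters, was at 1845, 2257 and 2143 CPM in the WT livers, 1248, 1604 and 1217 CPM in the N-LKO livers and 875, 712 and 970.5 CPM in the tumors (log2 fold change −1.29, SE 0.19, adjusted p 0.00782). Acaa1a, the thiolase of the peroxisome, was at 233, 272 and 233 CPM in the WT livers, 162, 188 and 174.8 CPM in the N-LKO livers and 113, 79.6 and 134 CPM in the tumors (log2 fold change −1.18, SE 0.19, adjusted p 0.00893). For Acsl1 and Acaa1a the N-LKO livers formed a step between WT livers and tumors. Eci2, an enoyl-CoA isomerase, fell by 0.88 on the log2 scale, from 214, 259 and 233 CPM to 141, 126 and 117 CPM, with little spread inside the groups. Entry into mitochondria was lower at each step, with log2 fold changes of −0.72 for Cpt1a, −0.69 for the carnitine carrier Slc25a20 and −0.67 for Cpt2. The trifunctional protein genes Hadha and Hadhb and the hormone Fgf21 were not called. Slc25a20 and Cpt2 lost their calls without WT liver 1 (adjusted p 0.0512 to 0.0656), Cyp4a14, Cpt1a, Slc25a20 and Cpt2 without WT liver 2 (0.0539 to 0.126), and Cpt1a and Slc25a20 without WT liver 3 (0.0534 to 0.0771). Slc25a20 did so without tumor 1 (0.0537), and Cpt1a, Slc25a20 and Cpt2 without tumor 2 (0.0511 to 0.0688).

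Of the 24 genes of cholesterol synthesis and SREBP2 control, 3 were lower (12.5%), the sterol enzymes Tm7sf2 (−0.98) and Ebp (−1.04) among them, and Sqle, the squalene epoxidase, was higher, from 1.37, 1.36 and 3.10 CPM to 6.08, 20.4 and 8.60 CPM (log2 fold change 2.58, SE 0.48, adjusted p 0.0123). The median of the list was −0.16, and 0.09 with library size alone, and Hmgcs1 was not called. Cyp46a1, which hydroxylates cholesterol at its side chain, was at 3.57, 4.48 and 7.16 CPM in the WT livers, 2.15, 1.19 and 2.02 CPM in the N-LKO livers and 1.11, 1.20 and 0.469 CPM in the tumors (log2 fold change −2.44, SE 0.41, adjusted p 0.00958). All N-LKO livers and all tumors lay below all WT livers, and tumor 2 overlapped N-LKO liver 2 for this gene. Tm7sf2, Ebp and Sqle lost their calls without WT liver 2 (adjusted p 0.0558 to 0.0648).

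Genes of fat synthesis went both ways. Of 21, 5 were lower and 3 higher, with a median of −0.08 that turned to 0.18 with library size alone, and without tumor 1 they were 4 lower and 6 higher, with a median of 0.13. The desaturase Fads2 was at 563, 997 and 821 CPM in the WT livers, 571, 569.9 and 614 CPM in the N-LKO livers and 382, 317 and 419.8 CPM in the tumors (log2 fold change −1.09, SE 0.21, adjusted p 0.0140), and the phosphatidate phosphatase Lpin2 fell by 0.87 on the log2 scale. Acaca, the carboxylase that starts fatty acid synthesis, was higher, with all tumors above all livers. Fasn, the synthase that follows, was at 190.5, 93.7 and 101 CPM in the WT livers and 328, 308 and 819 CPM in the tumors (log2 fold change 1.92, SE 0.43, adjusted p 0.0205). Fasn was highest in tumor 3 and like between tumors 1 and 2. The muscle-type carboxylase Acacb, which makes the malonyl-CoA that holds back Cpt1a, was lower (−1.06). Lpin2, Fasn and Acacb lost their calls without WT liver 2 (adjusted p 0.0505 to 0.118), Fasn and Acacb without WT liver 3 (0.0626 to 0.123), and Acacb without tumor 1 (0.0607), tumor 2 (0.106) and tumor 3 (0.0544).

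Lipoprotein genes were lower in 7 of 22 (31.8%) and higher in 1, Apoc2, and without tumor 1 in 8 and 3. Apoe, an abundant ligand of lipoprotein receptors, was at 17810, 17200 and 15220 CPM in the WT livers, 12740, 10980 and 13450 CPM in the N-LKO livers and 9589, 8185 and 10230 CPM in the tumors (log2 fold change −0.84, SE 0.20, adjusted p 0.0248). Apoc4, its neighbour in the apolipoprotein cluster, was at 294, 375 and 283 CPM in the WT livers, 245, 219.7 and 271 CPM in the N-LKO livers and 173, 151 and 173 CPM in the tumors (log2 fold change −0.94, SE 0.16, adjusted p 0.00958). Apoc2, the cofactor of lipoprotein lipase from the same cluster, was at 212, 141 and 182 CPM in the WT livers, 177, 115 and 186.8 CPM in the N-LKO livers and 291, 520.1 and 879.8 CPM in the tumors (log2 fold change 1.66, SE 0.36, adjusted p 0.0189). Neighbouring genes thus lay below the livers in 2 cases and above them in 1. Lcat, which esterifies plasma cholesterol, was at 213, 364 and 227 CPM in the WT livers and 152.3, 104.1 and 144 CPM in the tumors (log2 fold change −1.01, SE 0.22, adjusted p 0.0194). Apoa1, Apob and Mttp were not called. Apoe lost its call without WT liver 1 (adjusted p 0.0677) and tumor 2 (0.0510), Apoe, Apoc2 and Lcat without WT liver 2 (0.0583 to 0.0777), and Apoc2 without WT liver 3 (0.0520).

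Bile acid genes were lower in 6 of 26 (23.1%) and higher in 2. Cyp8b1, the sterol 12α-hydroxylase, was at 265, 498 and 426 CPM in the WT livers, 189, 417 and 269 CPM in the N-LKO livers and 101, 131 and 16.5 CPM in the tumors (log2 fold change −2.26, SE 0.61, adjusted p 0.0360). Cyp7b1, of the acidic pathway of bile acid synthesis, was at 79.6, 204 and 64.0 CPM in the WT livers and 31.5, 39.7 and 30.6 CPM in the tumors (log2 fold change −1.77, SE 0.46, adjusted p 0.0320). Tumor 3 was the lowest for Cyp8b1, while the tumors were alike for Cyp7b1. Hsd3b7, which acts after either hydroxylase, was at 316, 316 and 277 CPM in the WT livers, 254, 252 and 273 CPM in the N-LKO livers and 204, 154 and 166 CPM in the tumors (log2 fold change −0.79, SE 0.15, adjusted p 0.0124), and was the 1 gene of the list still lower without WT liver 2. Slc51b, a subunit of the basolateral exporter OST, rose from 0.343, 0.203 and 0.179 CPM to 5.78, 4.09 and 5.79 CPM (log2 fold change 4.41, SE 0.37, adjusted p 0.00124). All tumors exceeded all livers of both genotypes, and it passed against the N-LKO livers as well (log2 fold change 3.81, adjusted p 0.00482). Cyp7a1, the first enzyme of the classic pathway, and the carriers Slc10a1 and Abcb11 were not called. Cyp8b1 lost its call without WT liver 1 (adjusted p 0.0567) and WT liver 3 (0.0741), Cyp8b1 and Cyp7b1 without WT liver 2 (0.112 to 0.113), and Cyp7b1 without tumor 1 (0.0558), tumor 2 (0.0591) and tumor 3 (0.0742).

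Breakdown of amino acids was lower in 11 of 53 genes (20.8%) and higher in none, with a median of −0.41. Aadat, an aminotransferase of kynurenine and aminoadipate, was at 75.5, 92.3 and 63.4 CPM in the WT livers, 52.9, 49.2 and 57.8 CPM in the N-LKO livers and 45.05, 27.9 and 28.4 CPM in the tumors (log2 fold change −1.19, SE 0.21, adjusted p 0.0109). Aldh4a1, the last enzyme of proline breakdown, fell from 346, 347 and 292 CPM to 163.3, 138 and 168 CPM (log2 fold change −1.07, SE 0.20, adjusted p 0.0133). These 2 passed in all 6 fits and were the only members lower without WT liver 2. Hpd, which acts after tyrosine aminotransferase in tyrosine breakdown, was at 961, 1775 and 844 CPM in the WT livers, 685, 489.7 and 662 CPM in the N-LKO livers and 476, 237 and 655 CPM in the tumors (log2 fold change −1.39, SE 0.38, adjusted p 0.0376). WT liver 2 was the highest library, tumor 3 was within the range of the N-LKO livers and tumor 2 was the lowest. The aminotransferase itself, Tat, and the methionine cycle genes Mat1a (−1.11) and Ahcy (−1.17) were also lower, while Fah, Cbs and Gldc were not called. Of 15 urea cycle and ammonia genes, 2 were lower, the carbonic anhydrase Car5a (−1.45) and the glutamine carrier Slc38a3 (−1.21), and neither was lower without WT liver 2 (adjusted p 0.131 and 0.122), whereas 5 of the 15 were lower without tumor 1. Hpd, Mat1a and Ahcy lost their calls without WT liver 1 (adjusted p 0.0601 to 0.0758), WT liver 2 (0.136 to 0.159), tumor 1 (0.0510 to 0.0702) and tumor 2 (0.0685 to 0.0930), Mat1a and Ahcy without WT liver 3 (0.0622 to 0.0623), and Mat1a without tumor 3 (0.05002).

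Glucose output was called in 3 of 18 genes, 2 lower and 1 higher, with a median of −0.08 that turned to 0.19 with library size alone. Pck1, which commits oxaloacetate to gluconeogenesis, was at 1678, 5393 and 2073 CPM in the WT livers, 1637, 1611 and 1570 CPM in the N-LKO livers and 1046, 424 and 1038 CPM in the tumors (log2 fold change −1.87, SE 0.46, adjusted p 0.0269). Sord, the sorbitol dehydrogenase, was at 1219, 1289 and 1195 CPM in the WT livers, 1073, 788 and 902 CPM in the N-LKO livers and 719, 542 and 494 CPM in the tumors (log2 fold change −1.08, SE 0.19, adjusted p 0.0112). WT liver 2 was high for Pck1, whereas the WT livers were alike for Sord and the tumors lay below every liver. Oxidative phosphorylation was lower in 4 of 25 genes (16%), Ndufv1, Sdha, Uqcrfs1 and Cox4i1, with a list median of −0.20 that turned to 0.05 with library size alone. Sdha, a subunit of succinate dehydrogenase, was at 444, 415 and 405 CPM in the WT livers, 365, 310.1 and 362 CPM in the N-LKO livers and 278, 171 and 201 CPM in the tumors (log2 fold change −0.96, SE 0.19, adjusted p 0.0139). Ndufv1 lost its call without WT liver 1 (adjusted p 0.0601), Pck1, Ndufv1 and Uqcrfs1 without WT liver 2 (0.0504 to 0.0829), and Pck1 without tumor 2 (0.0567).

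Beside Nus1, 4 of the other genes of dolichol and N-glycan assembly were lower, so that 5 of 30 were called (16.7%) and none was higher. Leaving out tumor 1 gave 10 lower (33.3%, background 10.1%) and 2 higher. The list's median was −0.17, and 0.09 with library size alone. Dolk, the kinase that makes dolichyl phosphate, was at 11.1, 13.4 and 13.1 CPM in the WT livers, 10.8, 11.9 and 10.5 CPM in the N-LKO livers and 6.84, 7.43 and 8.39 CPM in the tumors (log2 fold change −0.73, SE 0.15, adjusted p 0.0168). Dolpp1, which recycles dolichyl pyrophosphate, was at 10.2, 12 and 9.72 CPM in the WT livers, 8.17, 8.45 and 7.66 CPM in the N-LKO livers and 5.78, 6.005 and 7.09 CPM in the tumors (log2 fold change −0.76, SE 0.16, adjusted p 0.0176). Both had tumors below all livers by less than 1 on the log2 scale. Dolpp1 overlaps Crat on the other strand, which stood at 123.7 CPM on average in the WT livers and 76.5 CPM in the tumors. Since the strand setting of the counting is not given, the reads of Dolpp1 and Crat cannot be told apart. Dpm1, a subunit of the mannosyl donor synthase, and Ganab, a glucosidase, fell by 0.68 and by 0.58. Dhdds, the partner of NgBR, and the oligosaccharyltransferase subunits were not called. Of 24 chaperones and unfolded protein response genes none was called in either direction, and 2 were lower and 1 higher without tumor 1. Dpm1 and Ganab lost their calls without WT liver 1 (adjusted p 0.0571 to 0.0642), Dolk, Dolpp1, Dpm1 and Ganab without WT liver 2 (0.0619 to 0.111), and Ganab without tumor 2 (0.0610) and tumor 3 (0.0737).

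Secreted plasma proteins were lowered in part. Among complement genes 4 of 24 were lower (16.7%), the terminal component C8a, the lectin Mbl1 and the proteases Masp1 and Masp2, and none of them was lower without WT liver 2. Cfd, the protease adipsin that activates the alternative pathway, was at 3.71, 24.6 and 18.3 CPM in the WT livers, 2.98, 2.80 and 4.63 CPM in the N-LKO livers and 1.36, 0.0890 and 0.0521 CPM in the tumors (log2 fold change −4.96, SE 0.92, adjusted p 0.0124). WT liver 1 was nearer to the N-LKO livers than to the other WT livers. Adipocytes are a main source of this protein. Of adipocyte genes read after its values were seen, Adipoq and Plin1 were at 0 in all WT livers and Fabp4 was at 22.5, 8.75 and 39.8 CPM in the WT livers and 54.9, 452 and 519.8 CPM in the tumors, and the part of such cells in the values of Cfd was not tested. In coagulation 3 of 25 were lower, and F12, the contact factor, was at 262, 349 and 245 CPM in the WT livers, 202, 181 and 210.1 CPM in the N-LKO livers and 139, 106 and 163.2 CPM in the tumors (log2 fold change −1.07, SE 0.19, adjusted p 0.0119). Rbp4, the retinol carrier, was at 2080, 2802 and 2092 CPM in the WT livers, 1645, 1546 and 1712 CPM in the N-LKO livers and 1371, 1084 and 1129 CPM in the tumors (log2 fold change −0.96, SE 0.19, adjusted p 0.0137). The albumin gene Alb was not called between tumors and WT livers, at −0.03 on the log2 scale (adjusted p 0.957). Of 23 carrier proteins 4 were lower and 1 was higher, ceruloplasmin Cp (0.96). The median of the carriers was −0.23, and 0.04 with library size alone. Acute phase genes held no lower member among 24 and 3 higher ones, Lcn2, Cd14 and Il1rn, with a median of −0.68 and 17 negative fold changes. Without tumor 1, 8 of the 24 were lower (33.3%, background 10.1%) and 2 higher, with a median of −0.86, and without WT liver 2 none was lower and 1 higher. Cp lost its call without WT liver 1 (adjusted p 0.0622), WT liver 2 (0.0660) and WT liver 3 (0.0641).

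Iron and BMP genes were lower in 7 of 20 (35%) and higher in none (8 and 2 without tumor 1), with a median of −0.58. Hepatocytes read BMP ligands from sinusoidal cells and set hepcidin by them. Bmp10, a ligand of this family, was at 6.04, 4.95 and 7.22 CPM in the WT livers, 3.38, 5.41 and 4.63 CPM in the N-LKO livers and 2.87, 0.356 and 0.365 CPM in the tumors (log2 fold change −2.35, SE 0.64, adjusted p 0.0371). The livers overlapped and tumors 2 and 3 were the lowest. Bmp2, a further ligand, was at 16.5, 22.3 and 16.6 CPM in the WT livers and 13.1, 6.23 and 5.58 CPM in the tumors (log2 fold change −1.15, SE 0.30, adjusted p 0.0306). The targets Id1 (−1.22), Id3 (−1.20) and Smad7 (−0.87) were lower, whereas Bmp6, the receptor Bmpr1a and the hepcidin gene Hamp were not called. Hfe, which senses transferrin iron with Tfr2, was at 49.8, 58.7 and 45.2 CPM in the WT livers, 48.1, 41.4 and 45.2 CPM in the N-LKO livers and 34.5, 26.8 and 29.2 CPM in the tumors (log2 fold change −0.76, SE 0.14, adjusted p 0.0131), and Tfr2 (−1.05) and the ferritin light chain Ftl1 (−0.70) were lower with it. Bmp10, Bmp2, Id1, Id3, Smad7 and Ftl1 lost their calls without WT liver 1 (adjusted p 0.0512 to 0.0918), Bmp10, Bmp2, Id1, Id3, Smad7, Tfr2 and Ftl1 without WT liver 2 (0.0672 to 0.156), and Bmp10 and Bmp2 without WT liver 3 (0.0554 to 0.0857). Id1 did so without tumor 1 (0.0528), Bmp10, Bmp2, Id1, Id3, Smad7 and Tfr2 without tumor 2 (0.0718 to 0.0985), and Bmp10, Bmp2, Id3 and Smad7 without tumor 3 (0.0589 to 0.0944).

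Retinoid and alcohol genes were lower in 6 of 17 (35.3%) and higher in 1. Rdh16, a retinol dehydrogenase, was at 217, 217 and 259.6 CPM in the WT livers, 182, 169.9 and 221 CPM in the N-LKO livers and 129.9, 93.0 and 135 CPM in the tumors (log2 fold change −0.96, SE 0.18, adjusted p 0.0128). Cyp26b1, which degrades retinoic acid, was at 12.9, 18.5 and 16.6 CPM in the WT livers, 17.7, 15 and 9.89 CPM in the N-LKO livers and 8.999, 2.71 and 2.87 CPM in the tumors (log2 fold change −1.72, SE 0.43, adjusted p 0.0275). Adh1, the alcohol dehydrogenase, and Aldh1a1, the aldehyde dehydrogenase that follows, fell by 0.69 and by 0.79. Cyp26b1, Adh1 and Aldh1a1 lost their calls without WT liver 1 (adjusted p 0.0513 to 0.115), WT liver 2 (0.0641 to 0.0914) and WT liver 3 (0.0552 to 0.0824), and Cyp26b1 and Aldh1a1 without tumor 2 (0.0623 to 0.0695) and tumor 3 (0.0640 to 0.0905).

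Of 20 genes of the circadian clock, 5 were lower (25%) and 2 were higher, and without WT liver 2 none was lower and 1 higher. Arntl, which codes for the activator BMAL1, was at 3.09, 3.05 and 3.58 CPM in the WT livers, 6.12, 8.16 and 6.49 CPM in the N-LKO livers and 9.80, 21.04 and 10.1 CPM in the tumors (log2 fold change 2.07, SE 0.31, adjusted p 0.00782). Npas2, a partner of BMAL1, was at 1.10, 0.407 and 0.656 CPM in the WT livers, 1.37, 2.94 and 2.07 CPM in the N-LKO livers and 5.08, 9.65 and 2.56 CPM in the tumors (log2 fold change 3.00, SE 0.55, adjusted p 0.0121). For both activators the 3 groups formed rising steps except that tumor 3 lay below N-LKO liver 2 for Npas2. Among the repressors, Nr1d1, which codes for REV-ERBα, was at 73.4, 81.2 and 68.5 CPM in the WT livers and 39.0, 24.0 and 57.2 CPM in the tumors (log2 fold change −0.89, SE 0.26, adjusted p 0.0470), and its relative Nr1d2 was at 149, 180.0 and 157 CPM and 116.4, 50.0 and 101 CPM (log2 fold change −0.86, SE 0.26, adjusted p 0.04999). Cry2 (−1.18), Bhlhe41 (−1.44) and the output factor Hlf were lower too, and Per1, Per2, Per3 and Dbp were not called. The hour at which tissue was taken is not given in the sources used here, and its part in these values was not tested. Nr1d1, Nr1d2, Cry2 and Bhlhe41 lost their calls without WT liver 1 (adjusted p 0.0520 to 0.0963), Npas2, Nr1d1, Nr1d2, Cry2 and Bhlhe41 without WT liver 2 (0.0534 to 0.147), and Nr1d1, Nr1d2 and Cry2 without WT liver 3 (0.0550 to 0.0914). Nr1d1 did so without tumor 1 (0.0749) and tumor 2 (0.0675), and Nr1d2 without tumor 3 (0.0654).

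**Figure D4:**
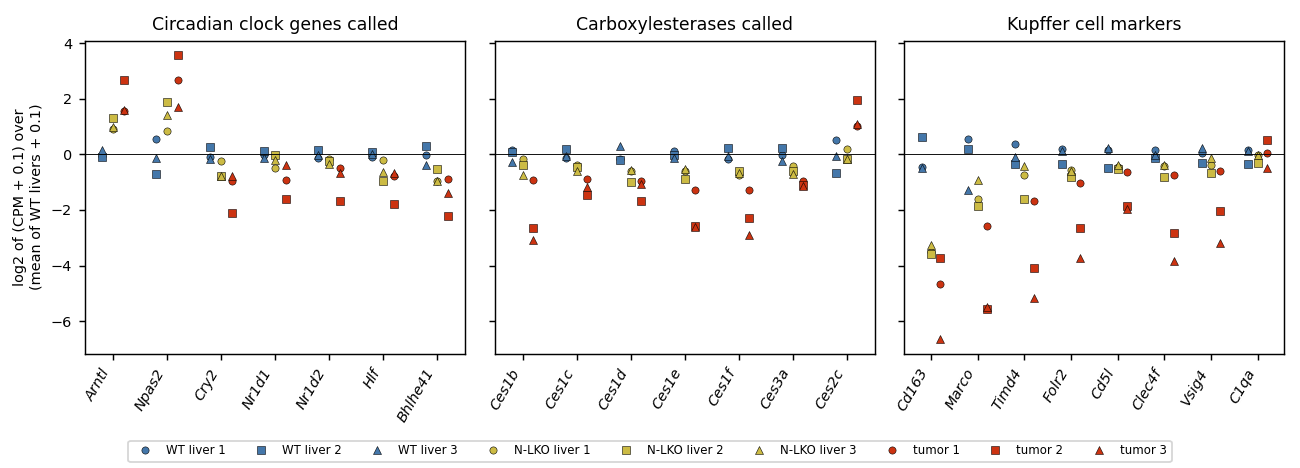
Log2 ratio of CPM to the mean of the WT livers, each with 0.1 added, of clock genes, carboxylesterases and Kupffer cell markers, 1 point for each WT liver, N-LKO liver and tumor. Arntl lies above 0 in all tumors, while Ces1e, Ces1f and Cd163 lie below it in all tumors.

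Markers of resident macrophages were among the largest falls. Of 12 Kupffer cell markers, 5 were lower (41.7%), none was higher, the median was −1.47, and none was at 0 in any library. Cd163, the receptor for hemoglobin and haptoglobin complexes, was at 11.2, 23.6 and 10.8 CPM in the WT livers, 1.22, 1.19 and 1.49 CPM in the N-LKO livers and 0.503, 1.07 and 0.0521 CPM in the tumors (log2 fold change −4.76, SE 0.60, adjusted p 0.00563). The N-LKO livers stood nearer to the tumors than to the WT livers, and the test between them did not pass (log2 fold change −1.21, adjusted p 0.335). Marco, a scavenger receptor, was at 9.82, 7.73 and 2.68 CPM in the WT livers, 2.15, 1.80 and 3.51 CPM in the N-LKO livers and 1.06, 0.0445 and 0.0521 CPM in the tumors (log2 fold change −4.13, SE 0.85, adjusted p 0.0162). Timd4, a receptor for phosphatidylserine on embryonic Kupffer cells, was at 7.001, 4.27 and 5.01 CPM in the WT livers, 3.18, 1.71 and 4.04 CPM in the N-LKO livers and 1.61, 0.222 and 0.0521 CPM in the tumors (log2 fold change −3.11, SE 0.75, adjusted p 0.0252). The N-LKO livers overlapped the WT livers for Marco only, and tumors 2 and 3 were near 0 for both. The secreted Cd5l (−1.36) and the folate receptor Folr2 (−2.09) were the other lower markers. Clec4f, the lectin that defines Kupffer cells, was at 131, 108 and 117 CPM in the WT livers and 70.5, 16.5 and 8.19 CPM in the tumors and missed the threshold (log2 fold change −1.90, SE 0.60, adjusted p 0.0596). Vsig4 was not called, nor were C1qa, C1qb, C1qc, Adgre1 and Csf1r, which other macrophages share. Of the 12 markers, 9 had a negative fold change. Summed over the 12, the WT livers held 674 to 946 CPM, the N-LKO livers 589 to 724 CPM and the tumors 304 to 639 CPM. Cd163 and Cd5l were the markers lower without WT liver 2, and 7 of the 12 were lower without tumor 1. Timd4, Cd5l and Folr2 lost their calls without WT liver 1 (adjusted p 0.0694 to 0.0709), WT liver 3 (0.0526 to 0.0698) and tumor 2 (0.0576 to 0.0678), Marco, Timd4 and Folr2 without WT liver 2 (0.0566 to 0.0655), and Cd5l without tumor 3 (0.0609).

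Recruited macrophage markers were higher in 2 of 8, Cd9 (2.00) and Itgax (1.68), and their sum was 46.6 to 192 CPM in the WT livers and 254 to 353 CPM in the tumors. Of 10 endothelial markers 1 was lower, Clec4g (−1.39), and 2 were higher, Pecam1 and Cdh5, with sums of 434 to 485 CPM in the WT livers and 440 to 472 CPM in the tumors. The median of the endothelial list was −0.10 and turned to 0.15 with library size alone, and without tumor 1 the list held 4 lower members. Of 12 stellate cell and fibroblast markers, Reln and Ecm1 were lower and Lum was higher. Ecm1, an extracellular matrix protein, was at 101, 109 and 108 CPM in the WT livers, 55.1, 66.8 and 62.5 CPM in the N-LKO livers and 45.05, 23.4 and 25.4 CPM in the tumors (log2 fold change −1.76, SE 0.23, adjusted p 0.00563). Its groups formed 3 falling steps and its fall passed in all 6 fits. Cholangiocyte markers were higher in 5 of 10 (50%, background 8.08%), with sums of 29.5 to 85.9 CPM in the WT livers and 235 to 551 CPM in the tumors, but the defining keratins Krt19 and Krt7 and Epcam were not called, and 2 of the 10 were lower and 6 higher without tumor 1. Sox9, a factor of bile duct and progenitor cells, was at 6.11, 6.10 and 6.26 CPM in the WT livers, 10.4, 9.49 and 11.7 CPM in the N-LKO livers and 22.1, 62.2 and 33.6 CPM in the tumors (log2 fold change 2.67, SE 0.33, adjusted p 0.00529). T cell markers were higher in 2 of 8 and B cell markers in 1 of 5, Jchain, while no neutrophil marker of 4 was called. Of 8 hepatocyte markers 3 were lower, Ttr, Tat and Hpd, and the sum was 47400 to 59650 CPM in the WT livers and 38020 to 65900 CPM in the tumors, so the labelled tissue carried its defining markers in every library. No tested marker of these lists was at 0 in any library, and the part of cell composition in the results above was not tested. Itgax, Clec4g and Reln lost their calls without WT liver 1 (adjusted p 0.0617 to 0.0888), tumor 2 (0.0601 to 0.0723) and tumor 3 (0.0623 to 0.104), and Clec4g and Reln without WT liver 2 (0.0571 to 0.136) and WT liver 3 (0.0710 to 0.0781).

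Several of the largest falls were genes of signalling. Hhip, which binds Hedgehog ligands at the cell surface, was at 4.19, 9.70 and 4.89 CPM in the WT livers, 0.294, 1.95 and 0.691 CPM in the N-LKO livers and 0.402, 0 and 0 CPM in the tumors (log2 fold change −5.51, SE 0.98, adjusted p 0.0112). All N-LKO livers already lay below all WT livers, and 2 tumors were at 0. Gas1, an anchored co-receptor of Hedgehog ligands, was at 7.99, 15.2 and 10.2 CPM in the WT livers, 9.08, 7.67 and 8.23 CPM in the N-LKO livers and 4.21, 1.87 and 2.55 CPM in the tumors (log2 fold change −1.95, SE 0.32, adjusted p 0.00907). The livers of both genotypes overlapped and the tumors were below them. Angptl6, a secreted angiopoietin-like growth factor, was at 5.67, 6.36 and 5.48 CPM in the WT livers, 3.26, 2.003 and 2.63 CPM in the N-LKO livers and 1.71, 0.912 and 1.47 CPM in the tumors (log2 fold change −2.10, SE 0.29, adjusted p 0.00613). Tmc3, of the transmembrane channel-like family, was at 7.30, 4.83 and 7.54 CPM in the WT livers, 2.56, 2.32 and 4.89 CPM in the N-LKO livers and 1.98, 0.626 and 0.864 CPM in the tumors (log2 fold change −2.50, SE 0.45, adjusted p 0.0113). Gas1, Angptl6 and Tmc3 each overlap a gene of the other strand and had fractional counts in 8 or 9 libraries, so their values are uncertain. Mcm10, which loads polymerase onto replication origins, was at 52.2, 66.0 and 46.9 CPM in the WT livers, 33.9, 37.1 and 32.6 CPM in the N-LKO livers and 20.3, 9.61 and 10.4 CPM in the tumors (log2 fold change −2.04, SE 0.27, adjusted p 0.00568). It fell in 3 steps without overlap while the helicase subunit Mcm6 rose (1.27). All of these except Mcm6 passed in all 6 fits. Mcm6 lost its call without WT liver 1 (adjusted p 0.0772), tumor 1 (0.0523), tumor 2 (0.107) and tumor 3 (0.0648).

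Receptors of growth factors were lower in 3 of 17, and the list's median of −0.17 turned to 0.11 with library size alone. Egfr, the receptor of epidermal growth factor, was at 374, 1217 and 464 CPM in the WT livers, 353, 287 and 262 CPM in the N-LKO livers and 337, 182 and 226 CPM in the tumors (log2 fold change −1.46, SE 0.41, adjusted p 0.0408). Its partner Erbb3 (−0.88) and the FGF19 receptor Fgfr4 (−0.59) were also lower, while the collagen receptor Ddr1 was higher (2.75). WT liver 2 was far above the other WT livers for Egfr, and 1 of the 17 was lower without tumor 1. Fgfr4 lost its call without WT liver 1 (adjusted p 0.0862), Egfr, Erbb3, Fgfr4 and Ddr1 without WT liver 2 (0.0590 to 0.141), and Erbb3 without WT liver 3 (0.0653). Erbb3 and Fgfr4 did so without tumor 1 (0.0593 to 0.0690), and Egfr, Erbb3 and Fgfr4 without tumor 2 (0.0664 to 0.103) and tumor 3 (0.05002 to 0.0912).

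Only 11 genes were lower in the tumors than in the N-LKO livers as well, namely AC118710.1, Cdc42bpg, Clstn3, Cntfr, Dsp, Jund, Nkd1, Ntn1, Tlr12, Vipr1 and Zfp423, all of which are reported after their values were seen except Clstn3, Jund and Nkd1. Clstn3, a calsyntenin of the cadherin family, was at 42.6, 64.1 and 47.1 CPM in the WT livers, 26.3, 47.7 and 36.2 CPM in the N-LKO livers and 15.99, 8.32 and 6.67 CPM in the tumors (log2 fold change −2.31, SE 0.34, adjusted p 0.00748). Jund, an AP-1 factor, was at 60.3, 66.4 and 60.1 CPM in the WT livers, 37.3, 66.1 and 50.6 CPM in the N-LKO livers and 24.3, 23.1 and 26.9 CPM in the tumors (log2 fold change −1.33, SE 0.19, adjusted p 0.00709). Vipr1, the receptor of vasoactive intestinal peptide, was at 47.1, 47.6 and 44.9 CPM in the WT livers, 32.6, 32.9 and 27.9 CPM in the N-LKO livers and 19.9, 17.97 and 16.7 CPM in the tumors (log2 fold change −1.35, SE 0.12, adjusted p 0.00124). The tumors stood below every liver in these 3 genes, while livers of both genotypes overlapped for Clstn3 and Jund and all N-LKO livers lay below all WT livers for Vipr1. Among 16 AP-1 and immediate early genes only Jund and Zfp36 were lower, with a list median of −0.17 that turned to 0.09 with library size alone. The comparisons of tumors with WT and with N-LKO livers share the tumor libraries.

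Functions that rose lie outside the falls and are given by list. Of 29 cell cycle genes 13 were higher (44.8%), with a median of 1.45. Of them 5 passed in all 6 fits, and 6 of the list were higher without WT liver 2. Top2a, the topoisomerase of dividing cells, was at 3.91, 1.29 and 4.47 CPM in the WT livers, 6.90, 5.65 and 8.19 CPM in the N-LKO livers and 18.9, 19.8 and 10.6 CPM in the tumors (log2 fold change 2.34, SE 0.40, adjusted p 0.00969). WT liver 2 was the lowest library for this and most other cycle genes. Of 18 cell cycle inhibitors and p53 targets 4 were higher, and Phlda3, a p53 target that holds back AKT, was at 1.78, 0.814 and 2.21 CPM in the WT livers, 3.13, 3.70 and 2.98 CPM in the N-LKO livers and 8.20, 10.8 and 10.1 CPM in the tumors (log2 fold change 2.59, SE 0.31, adjusted p 0.00482). Antioxidant genes were split, with 5 of 24 higher and 3 lower and a median of −0.09 that turned to 0.16 with library size alone. Nqo1, the quinone reductase that NRF2 induces, was at 11.2, 3.595 and 7.51 CPM in the WT livers, 9.54, 8.36 and 8.19 CPM in the N-LKO livers and 30.4, 40.7 and 17.99 CPM in the tumors (log2 fold change 2.00, SE 0.38, adjusted p 0.0133), while Gclc, Gclm and Txnrd1, further targets of that factor, were not called. The aldose reductase relative Akr1b7 was at 0.343, 0.339 and 0.119 CPM and 12.6, 3.47 and 9.12 CPM in WT livers and tumors (log2 fold change 4.96, SE 0.58, adjusted p 0.00433). In general glycolysis 4 of 22 were higher, and Hk2, the hexokinase that adult hepatocytes hardly express, was at 12.4, 5.90 and 9.06 CPM in the WT livers, 15.4, 14.9 and 17.9 CPM in the N-LKO livers and 22.8, 21.2 and 23.2 CPM in the tumors (log2 fold change 1.29, SE 0.23, adjusted p 0.0112). All N-LKO livers and all tumors lay above all WT livers for Hk2.

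The 5 named rises were H19, Timp4, Apela, Myot and Gpx2. Apela, a peptide ligand of the apelin receptor used in the embryo, was at 0 in all WT livers and at 6.18, 19.8 and 2.66 CPM in the tumors, at least 46.3-fold higher against a floor of 3 counts per library. Myot, a protein of the sarcomere, was at 0 in all WT livers and at 1.56, 7.83 and 13.4 CPM in the tumors, at least 36.9-fold higher against the same floor. H19, a noncoding RNA of the fetal liver, was at 1.51, 0.339 and 0.775 CPM in the WT livers and 687, 11040 and 489 CPM in the tumors, highest in tumor 2. Gpx2, a glutathione peroxidase of gut epithelium, was at 0.0686, 0 and 0.0596 CPM in the WT livers and 5.88, 31.4 and 5.89 CPM in the tumors (adjusted p 0.00563). Timp4, an inhibitor of matrix proteases, was at 0, 0 and 0.0596 CPM in the WT livers and 1.51, 53.5 and 78.0 CPM in the tumors (adjusted p 0.00897). The WT livers held 2 counts of Gpx2 and 1 of Timp4 in all, so no fold is given. Timp4 and Gpx2 overlap genes of the other strand, Syn2 and Fntb, which stayed under 4 CPM on average in either group.

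The lower genes were not spread evenly over the chromosomes. Calls made up 17.5% of the tested genes of chromosome 8, 16.0% of chromosome 13, 14.4% of chromosome 19 and 12.9% of chromosome 4, but 1.49% of chromosome 12, 2.01% of X and 2.18% of chromosome 1. Chromosomes 4, 8, 13 and 19, the 4 with the highest shares of lower calls, held 501 of the lower calls (41.3%) and 18.6% of the tested genes. To describe whole chromosomes, the log2 ratio to the WT mean was taken for 10177 genes with a mean of at least 5 CPM in both groups, and each library's median over all these genes was subtracted. In the WT livers the chromosome medians lay between −0.047 and 0.034 and in the N-LKO livers between −0.058 and 0.111. Each WT liver is part of the WT mean, which narrows the range of the WT livers. Tumor 2 was low on chromosomes 8 (−0.468), 9 (−0.429), 12 (−0.421), 13 (−0.397) and 14 (−0.441), that is at 72.3% to 75.9% of the level at its own median. Tumor 3 was low on chromosomes 8 (−0.355), 13 (−0.488), 19 (−0.407) and X (−0.495), at 71.0% to 78.2%. Tumor 1 lay between −0.176 on chromosome 4 and 0.285 on X. In each of these cases each of 4 equal parts of the chromosome had a negative median. A library's shift can be its own: on chromosome 12, tumor 2 was low while tumors 1 and 3 stood at 0.151 and 0.153. Chromosome 4 stood at −0.176, −0.028 and −0.200 in tumors 1, 2 and 3, so its share of lower calls came without a broad shift in tumor 2. DNA was not measured in these samples, and the part of chromosome copy number in these values was not tested.

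**Figure D5:**
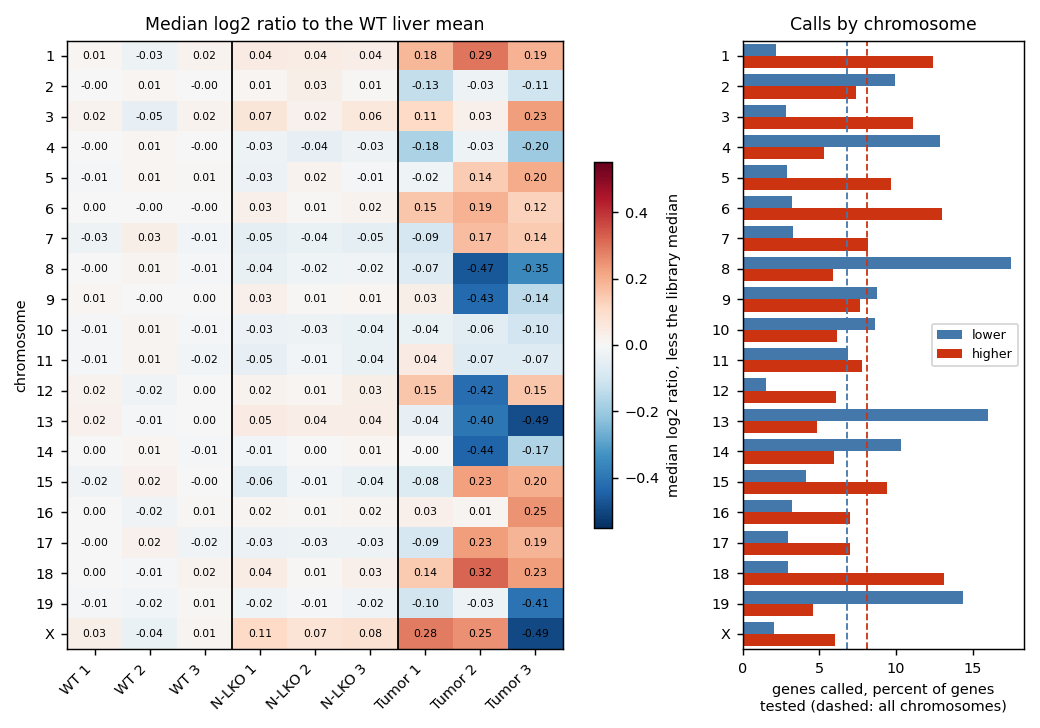
Median log2 ratio to the WT mean of the genes of each chromosome in every library, less the library's own median over all genes. WT and N-LKO livers stay within −0.058 to 0.111, while tumor 2 falls to −0.468 on chromosome 8 and tumor 3 to −0.495 on X. Each WT liver is part of the WT mean.

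Several lists above have their lower members on those chromosomes. All 6 lower carboxylesterases were among the 11 genes of that list on chromosomes 8, 13 and 19, against 0 of 5 elsewhere. All 4 lower genes of oxidative phosphorylation were among 5 on these chromosomes, against 0 of 20 elsewhere. Of the P450 genes 6 of 12 there were lower and 6 of 27 elsewhere, and of the amino acid genes 5 of 9 there and 6 of 44 elsewhere. The lower P450 genes there include Cyp2c37, Cyp2c50 and Cyp2c54 of chromosome 19, which were all lowest in tumor 2. The median of chromosome 19 was −0.103, −0.029 and −0.407 in tumors 1, 2 and 3. In the N-LKO livers, where these genes were already below all WT livers, it was −0.024 to −0.007. In fatty acid oxidation 3 of 3 genes there were lower, Cpt1a, Eci2 and Acsl1, but 12 of 35 elsewhere were lower as well. In all, 43 of the 168 lower list members lay on chromosomes 8, 13 and 19. Of all 1213 lower genes, 161, 122 and 85 lay on chromosomes 8, 13 and 19. The lower list members as a whole were thus not more concentrated there than all lower genes. Among all genes tested, 17.5% on chromosome 8, 16.0% on chromosome 13 and 14.4% on chromosome 19 were lower, against 6.80% over all. These chromosomes had the highest shares of lower calls, so the splits are not independent of the calls and are description only.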

How the data were processed

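RNA was sequenced by the authors after removal of ribosomal RNA, as single-end reads. The authors deposited estimated counts per gene, not normalized, made with Partek's expectation-maximization quantification, which splits reads between similar genes, and 66.64% of the values were whole. The submitters' processing notes list STAR, Partek and mm9, whereas the study's methods name TopHat2, and 99.4% of the gene starts equal those of GRCm38, so the aligner and build are uncertain. The strand setting is not given in the sources used here. Estimated counts were rounded and tested with edgeR 4.0.16 (R 4.3.3) by its quasi-likelihood F test, two-sided, after filterByExpr and TMM scaling, in 1 fit of the 9 WD libraries by group, with Benjamini-Hochberg adjustment over all genes tested and a threshold of 0.05. Log2 fold changes are those of edgeR, computed here from the deposited counts, and their SE is the fold change divided by the square root of F. On simulated data for 17511 genes the fit recovered 196 of 200 changed genes with 17 false calls. The changed genes were well expressed, as many up as down, with a median absolute log2 fold change of 2.015. The spread of each gene was set equal in all groups. Recovery of smaller changes, or with uneven spread between groups, was therefore not simulated.

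Each column of the count table was matched to its sample by the label's description. The libraries held 15494731 to 20200618 counts, and no 2 libraries of the same group were duplicates. Pairs from different groups were not part of this check. The named falls are the 15 largest with a mean of at least 5 CPM in WT livers and no overlap of tumors and WT livers, joined with the 15 largest that also passed in all 6 fits leaving out 1 WT liver or tumor, of which 8 are in both. Of the 22 genes so chosen, 1 is not reported here, nor are some other list members by name, though the list counts include them. The 5 largest rises in all 6 fits were named by the same conditions. Mup genes and automatic gene names were passed over. The members, lists and rules were chosen with earlier results of these data known, so lists are described by counts and carry no test. Alternatives were RLE, upper-quartile and library-size scaling, no filter on low counts, a minimum mean of 1 CPM, limma-voom (limma 3.58.1), DESeq2 1.42.0, a replicate block, the 2 groups alone and leaving out each library. Promoters are those of RefSeq on GRCm38.p6, in which 16 of the 21 named falls had an entry.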

Additional observations from a re-analysis of the deposited data

How the results depend on the processing

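Of the genes lower in tumors than in WT livers, counted at 1213 in the fit described, 485 were called with library size alone, 296 with only the 2 groups compared and 1833 with DESeq2, and leaving out 1 library gave 233 (WT liver 2) to 1852 (tumor 1). The genes higher in tumors, 1440, became 2509 with library size alone and 409 with only the 2 groups, and 336 (WT liver 2) to 1967 (tumor 1) with 1 library left out. Against the N-LKO livers, 89 genes in all were called, 58 with a minimum mean of 1 CPM, 1021 with DESeq2, 18 with limma-voom, 36 with the replicate block, 29 with only the 2 groups, 3 (without N-LKO liver 2) to 2193 (without tumor 1) with 1 library left out, and 2658 without both WT liver 2 and tumor 1, a setting chosen after seeing the data. The cause of these differences was not tested. No other setting moved the 3 counts by more than 1.5 times, and no named gene or called list member reversed its direction. Of 261 such genes, the number still past the threshold was 96 without WT liver 2, 101 of 260 with only the 2 groups, 193 with library size alone, 230 with upper-quartile scaling, 235 with limma-voom and 258 with RLE factors, and all 256 that DESeq2 gave an adjusted p passed there. Of the 21 named falls, 14 passed without WT liver 2, 16 with only the 2 groups, 20 with library size alone and all 21 with limma-voom and DESeq2. Replicate numbers are given in the labels for every group, and deviations of libraries with the same number correlated at −0.124 to 0.101. The column names of the counts number the samples otherwise, so these correlations cannot show whether samples share an animal. With the replicate block 889 genes were lower and 971 higher, and 194 of the 261 genes passed. Genes under about 1 CPM, such as Cyp1a1 in the tumors, rest on few counts.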

Other observations

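Other genes of the Hedgehog pathway were read after the falls of Hhip and Gas1 were seen. Ptch1, the receptor that Hedgehog ligands bind and a target of the pathway, was at 43.0, 44.0 and 44.4 CPM in the WT livers, 40.2, 43.8 and 33.9 CPM in the N-LKO livers and 35.0, 27.7 and 23.7 CPM in the tumors (log2 fold change −0.60, SE 0.16, adjusted p 0.0331, edgeR). Its tumors lay below all WT livers, and the call held in 1 of the 6 fits that left out a WT liver or a tumor (adjusted p 0.0931 without WT liver 2). The signal transducer Smo, the factor Gli3, the inhibitor Sufu, the co-receptors Cdon and Boc and the ligand Ihh did not pass, and Gli1, Gli2 and Dhh were under the filter on low counts.

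Further genes of the 11 that were lower than in N-LKO livers were also read after their values were seen. Dsp, the desmosomal plaque protein, was at 179, 177 and 195 CPM in the WT livers, 173, 243 and 219 CPM in the N-LKO livers and 124, 77.5 and 93.5 CPM in the tumors (log2 fold change −0.90, SE 0.19, adjusted p 0.0181, edgeR). Ntn1, the guidance ligand netrin, was at 21.4, 19.7 and 22.7 CPM in the WT livers, 20.02, 29.7 and 22.4 CPM in the N-LKO livers and 12.4, 10.99 and 11.7 CPM in the tumors (log2 fold change −0.86, SE 0.16, adjusted p 0.0131). Cntfr, the receptor subunit of ciliary neurotrophic factor, was at 1.85, 1.70 and 0.954 CPM in the WT livers, 2.40, 2.28 and 2.66 CPM in the N-LKO livers and 0.804, 0.311 and 0.521 CPM in the tumors (log2 fold change −1.45, SE 0.40, adjusted p 0.0382). For all of them the tumors were below every liver. Cntfr held in 2 of the 6 fits that left out a WT liver or a tumor and Dsp in 5 (adjusted p 0.114 and 0.0551 without WT liver 2), and Ntn1 and the junction gene Gjb2 that follows held in all 6. Among 19 cell junction genes, Gjb2, which codes for the gap junction protein connexin 26, was the 1 called lower, at 317, 571 and 325 CPM in the WT livers, 246, 253 and 251 CPM in the N-LKO livers and 189, 183 and 192 CPM in the tumors (log2 fold change −1.10, SE 0.22, adjusted p 0.0143), a share of 5.26% beside 6.80% of all genes tested, while Cldn1 (1.14), Cldn7 (2.69) and Cdh1 (1.68) were higher. Without tumor 1, 3 of 20 junction genes were lower and 7 higher, beside 1852 and 1967 of all 18285 genes tested.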
